A study of Mus musculus with 8 samples.

Results

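The MS4A family is a set of small proteins that cross the cell membrane repeatedly, and its founding member is the B cell antigen CD20. It was read here through 9 mouse genes, Ms4a1, Ms4a4b, Ms4a4c, Ms4a4d, Ms4a6b, Ms4a6c, Ms4a6d, Ms4a7 and Ms4a8a. Members were chosen as every non-control probe whose accession maps to one of these genes, which gave 14 probes for the 9 genes among 41174 probes for 32665 genes. All 14 probes were well above background on all 8 arrays, so every member was among the 20886 genes tested. The RNA came from macrophages of breast tumours in C57BL/6 mice, about 21 days after PyMT breast cancer cells were implanted orthotopically. Hosts were wild type (WT, 4 samples) or ATF3 knockout (KO, 4 samples), where ATF3 is a stress-induced transcription factor; the implanted PyMT cells were common to both groups. Sorting kept cells positive for both surface proteins that Adgre1 and Ptprc encode. The labels give no age, do not say in which cells ATF3 was deleted, and do not tell whether each sample is its own mouse, so a p-value speaks only of the spread among these 8 samples.

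MS4A proteins act mostly beside receptors, whose signalling or surface level they tune, and different members mark different blood cells. Ms4a1 (CD20) is a B cell gene, Ms4a4b is known from T cells, and Ms4a6d and Ms4a7 are known from macrophages, Ms4a7 above all from those that descend from monocytes. Ms4a8a has been described in tumour macrophages. In a bulk sample, fewer cells of a type and less RNA per cell cannot be told apart.

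The genes lie side by side on chromosome 19. In the RefSeq table of assembly GRCm38.p6, a stretch of 22 protein-coding genes runs from Ms4a10 to Ms4a3, and 21 of them carry an Ms4a name, the 9 members among them. Gene starts were available for 7 of the 9 members, as 8 windows reaching from 250 bases before to 50 bases after the start. Ms4a1 and Ms4a6d have no window. The windows shown are those of 2 pairs of near relatives, picked after their shared sequence was seen. The capitals mark the longest run of identical bases within each pair, 20 bases for Ms4a4b with Ms4a4c and 48 bases for Ms4a6b with Ms4a6c. Ms4a4b and Ms4a4c share another run of 20 bases further along both windows, left in small letters. Sequences are RefSeq's on GRCm38.p6, plus strand, at chr19:11443308-11443607 (Ms4a4b), chr19:11407411-11407710 (Ms4a4c), chr19:11518309-11518608 (Ms4a6b) and chr19:11469118-11469417 (Ms4a6c).
Ms4a4b promoter: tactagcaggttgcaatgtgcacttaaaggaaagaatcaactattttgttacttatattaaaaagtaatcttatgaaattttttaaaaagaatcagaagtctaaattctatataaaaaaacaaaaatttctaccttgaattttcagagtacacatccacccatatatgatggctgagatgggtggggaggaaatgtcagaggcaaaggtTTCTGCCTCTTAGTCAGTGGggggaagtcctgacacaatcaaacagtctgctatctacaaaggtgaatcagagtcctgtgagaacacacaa
Ms4a4c promoter: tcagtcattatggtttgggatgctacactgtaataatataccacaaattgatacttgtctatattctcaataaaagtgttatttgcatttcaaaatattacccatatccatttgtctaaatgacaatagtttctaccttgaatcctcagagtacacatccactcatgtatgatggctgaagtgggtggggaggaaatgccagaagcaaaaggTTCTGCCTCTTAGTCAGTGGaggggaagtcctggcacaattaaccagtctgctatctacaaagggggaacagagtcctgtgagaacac
Ms4a6b promoter: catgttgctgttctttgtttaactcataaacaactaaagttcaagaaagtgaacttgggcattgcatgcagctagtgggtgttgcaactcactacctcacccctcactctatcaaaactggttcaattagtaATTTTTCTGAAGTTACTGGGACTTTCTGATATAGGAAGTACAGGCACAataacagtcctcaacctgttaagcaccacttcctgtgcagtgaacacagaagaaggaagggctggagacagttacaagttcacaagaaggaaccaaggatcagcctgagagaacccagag
Ms4a6c promoter: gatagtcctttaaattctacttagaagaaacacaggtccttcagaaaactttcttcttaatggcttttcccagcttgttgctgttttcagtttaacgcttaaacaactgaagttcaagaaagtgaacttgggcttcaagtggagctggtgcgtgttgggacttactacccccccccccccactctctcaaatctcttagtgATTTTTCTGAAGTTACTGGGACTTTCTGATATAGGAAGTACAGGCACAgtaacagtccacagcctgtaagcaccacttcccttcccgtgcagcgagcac

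Over the 28 pairs of windows the longest shared run had a median of 9 bases and ranged from 7 to 48. Aligned end to end, the Ms4a4b and Ms4a4c windows were identical at 73.8% of aligned positions, against a median of 49.9% over the 28 pairs. Ms4a6b and Ms4a6c reached 52.3% in the same alignment. There the shared run lies 118 to 71 bases before the start in Ms4a6b and 49 to 2 bases before it in Ms4a6c. The windows were searched on both strands for sites named for the CRE bound by ATF factors (TGACGTCA), AP-1 (TGANTCA, the same on both strands), PU.1 (GAGGAAGT) and the interferon response element (GAAA repeated after a gap of 2 bases). Matches were found for AP-1 letters only, in 3 of 8 windows against 7.81% of all 32851 windows of this length. They were TGAATCA 22 bases after the Ms4a4b start, TGATTCA 81 bases before a second Ms4a7 start and TGAGTCA 244 bases before the Ms4a8a start. A match of letters is a description of the window and not a bound site. The other motifs occur in 1.79% (CRE), 3.44% (interferon) and 3.2% (PU.1) of all windows.

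Every level below is the log2 of the background-corrected spot signal relative to its array's 75th percentile, and a level is compared only with the same probe on other arrays. As intensity the 75th percentile ran from 619 to 927, always at least 20.5 times the median background, and 63.7% to 68.0% of spots were well above background. Each of 2 slides held 4 arrays, numbers 1 and 2 of both genotypes sharing slide 1, and numbers 3 and 4 sharing slide 2. Same-numbered WT and KO samples deviated together for numbers 1, 3 and 4, and only weakly for number 2. The targeted gene, Atf3, measured 4.8 ± 0.21 in WT and 5.05 ± 0.31 in KO samples (SD, n = 4 each), and no source used here places its kept probe against the deletion. The genotype names below are those of the labels. The sort markers were strong in both groups, with Adgre1 at 4.14 ± 0.60 and 4.07 ± 0.54 and Ptprc at 4.51 ± 0.54 and 4.42 ± 0.55 in WT and KO samples (SD, n = 4 each).

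No member passed the test between KO and WT hosts. By limma with Benjamini-Hochberg adjustment over all 20886 genes, 0 of 9 members and 0 genes in all were called (0% of genes). Each member had an adjusted p of 0.9998. Without adjustment, 0 members and 700 genes (3.35% of those tested) lay under 0.05, 1.13% of genes being under it and higher in KO. The WT and KO arrays overlapped for every member, while 443 genes, or 2.12%, had groups that did not overlap (0.78% with every KO array the higher). The KO mean was above the WT mean for 7 of 9 members, against 48.8% of all genes. Their median log2 difference was 0.28, ranging from −0.08 for Ms4a7 to 1.66 for Ms4a1, beside a median of −0.01 over all genes. The count of 7 was 3 without WT sample 4 and 9 without WT sample 3 or without KO sample 4. It was 5 without KO sample 1 or KO sample 3.

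**Figure D1:**
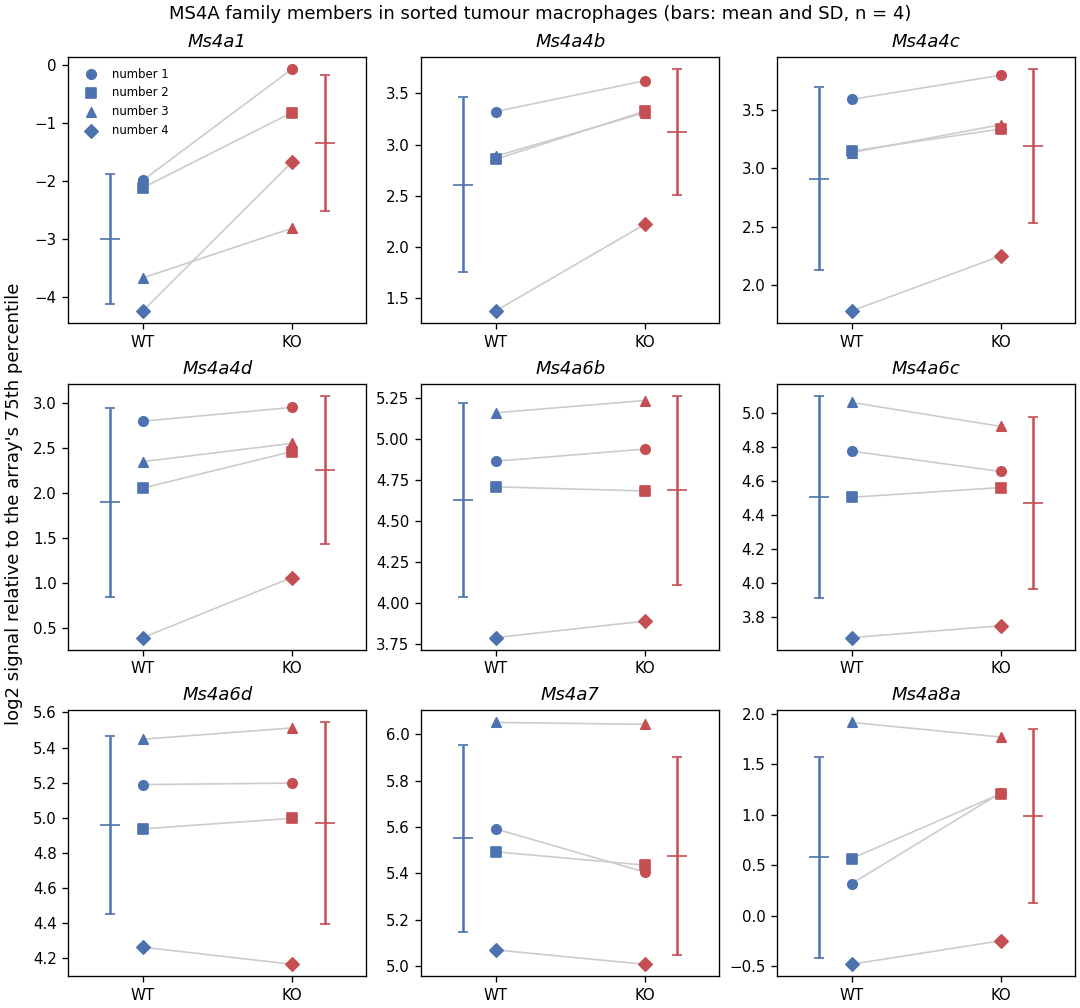
Log2 level of each of the 9 members in the 4 WT (blue) and 4 KO (red) samples, relative to the array's 75th percentile. Grey lines join same-numbered samples, symbols give the number, and bars show mean and SD (n = 4). Each panel has its own vertical scale. The groups overlap in all 9 panels, and number 4 is the lowest of its group for all members but Ms4a1 in KO.

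**Figure D2:**
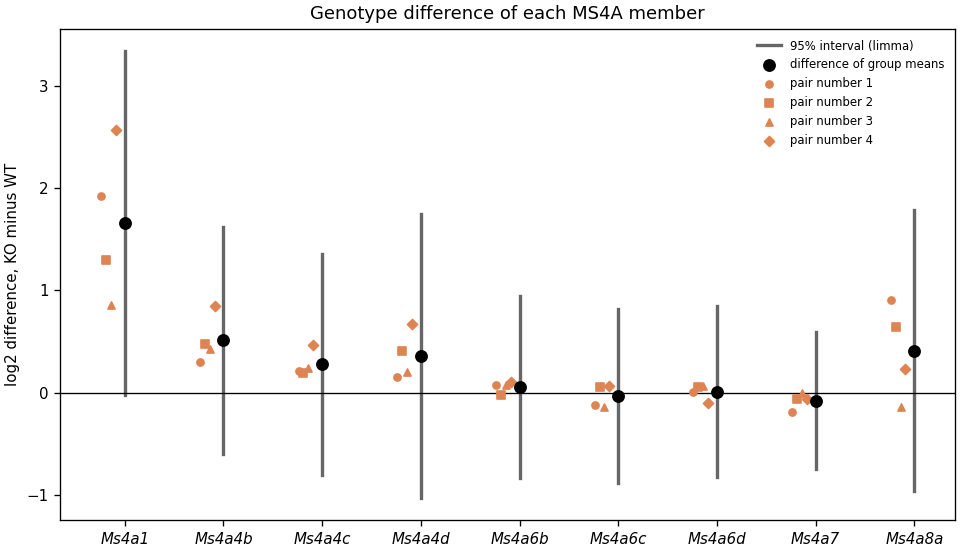
Log2 difference KO minus WT for each member, with the 95% interval of the limma fit (grey bars), the difference of group means (black) and the 4 same-numbered differences (orange). Every interval includes 0. Ms4a1 has the largest difference, 1.66, and the intervals of the Ms4a6 genes and Ms4a7 stay within 1 unit of 0.

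Ms4a1 encodes CD20, the B cell surface protein targeted by therapeutic antibodies, and had the largest difference of the family. Its signals were 156, 153, 58 and 42 intensity units in WT samples 1 to 4. In KO samples 1 to 4 they were 608, 527, 117 and 246. Only KO sample 3 lay within the range of the WT samples. WT samples 3 and 4 were the dimmest, while KO sample 1 came close to its array's 75th percentile of 637. On the log2 scale these were −1.98, −2.11, −3.67 and −4.23 in WT and −0.07, −0.82, −2.81 and −1.67 in KO samples. The group means were −2.999 ± 1.12 and −1.34 ± 1.18 (SD, n = 4 each), 1.66 apart (standard error 0.72, 95% interval −0.02 to 3.33). That is a 3.15-fold higher mean signal in KO samples, which did not pass (limma adjusted p = 0.9998, unadjusted p = 0.0521). The KO sample was the higher one in 4 of 4 same-numbered pairs, by 1.92, 1.30, 0.86 and 2.56. The difference was 1.61 on slide 1 and 1.71 on slide 2, and ranged from 1.23 to 2.15 when 1 sample was left out. With normexp background correction, which treats dim spots differently, it was 0.93. With the sample number as a block, the unadjusted p was 0.0042 and the adjusted p 0.636 by limma. Ms4a1 and Ms4a4b were the 2 members under an unadjusted 0.05 in that fit, both higher in KO, as were 2.95% of genes (7.56% in either direction).

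Other B cell genes gave smaller values. The fixed B cell list, which does not hold Ms4a1, had 12 of its 13 genes tested, 9 higher and 3 lower in KO, with a median difference of 0.33 and 0 called. Its summed signal, in units of the array's 75th percentile, ranged from 4.39 to 14.0 in WT and from 4.28 to 13.8 in KO samples. That sum is mostly Pou2af1, a B cell co-activator gene with signals of 1304 to 9429 and a difference of 0.10, while the other tested B cell genes stayed at or below 793. The list ran from 0.96 for Bank1, a B cell adaptor gene, to −0.50 for Pax5, the B lineage transcription factor. Cd79a, which carries the signal of the B cell receptor, differed by 0.61. None passed (limma adjusted p = 0.9998 for each). The list's mean log2 level was higher in the KO sample in 3 of 4 pairs and lower in pair 2 (−1.53 in WT, −1.80 in KO), where Ms4a1 was higher in KO by 1.30. The part of B cell content in the Ms4a1 difference was not tested.

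By their brightest probes, the 3 Ms4a4 genes moved together from sample to sample and were a little higher in KO samples in all 4 pairs. Ms4a4b, known as a modulator of T cell activation that associates with the receptor GITR, gave signals of 6188, 4781, 5429 and 2045 in WT samples 1 to 4. In KO samples 1 to 4 its signals were 7852, 9298, 8155 and 3660. Number 4 was the lowest sample of each group. The group means were 2.61 ± 0.85 in WT and 3.12 ± 0.62 in KO (SD, n = 4 each), which differed by 0.51 (standard error 0.48, limma adjusted p = 0.9998). Same-numbered differences were 0.30, 0.47, 0.43 and 0.85. Without WT sample 4 the difference was 0.10, and without KO sample 4 it was 0.81.

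Ms4a4c, a neighbour of Ms4a4b on the chromosome, gave signals of 7437, 5849, 6446 and 2715 in WT samples 1 to 4. In KO samples 1 to 4 they were 8835, 9359, 8511 and 3742. As for Ms4a4b, the samples numbered 4 stood below all others. The means were 2.91 ± 0.78 and 3.19 ± 0.66 (SD, n = 4 each), which differed by 0.28 (standard error 0.47). Pair by pair it was higher in KO by 0.21, 0.19, 0.24 and 0.47, while without WT sample 4 the sign turned, to −0.10.

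Ms4a4d gave signals of 4307, 2746, 3744 and 1034 in WT samples 1 to 4 by its brighter probe. In KO samples 1 to 4 the signals were 4930, 5106, 4822 and 1638. The order of the samples was close to that of Ms4a4c. The means were 1.90 ± 1.05 and 2.26 ± 0.83 (SD, n = 4 each), which differed by 0.36 (standard error 0.60). Differences within pairs were 0.15, 0.41, 0.20 and 0.67, and without WT sample 4 the difference was −0.14. Neither Ms4a4c nor Ms4a4d passed (limma adjusted p = 0.9998 for each). Counting Ms4a1, 4 of 9 members were higher in KO in 4 of 4 pairs by their brightest probes, as were 1567 genes or 7.5% of those tested.

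Probes of one gene did not always tell the same story. The 4 Ms4a4b probes gave log2 differences of 0.51, 0.41, 0.59 and 0.79, all higher in KO in 4 of 4 pairs. By contrast the second Ms4a4d probe was dim, with signals between 22 and 150, and gave −0.67 (standard error 0.81). It was higher in KO in 2 of 4 pairs, with −1.41, −2.28, 0.13 and 0.87. The samples numbered 4 were the lowest of their groups by the first Ms4a4d probe and were not by the second. The 2 Ms4a7 probes gave −0.08 and −0.19. No member probe passed when all 27174 kept probes were tested singly (limma adjusted p = 0.9998 for each). Probe sequences were not used here, so whether a probe reads its paralogs too was not tested.

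**Figure D3:**
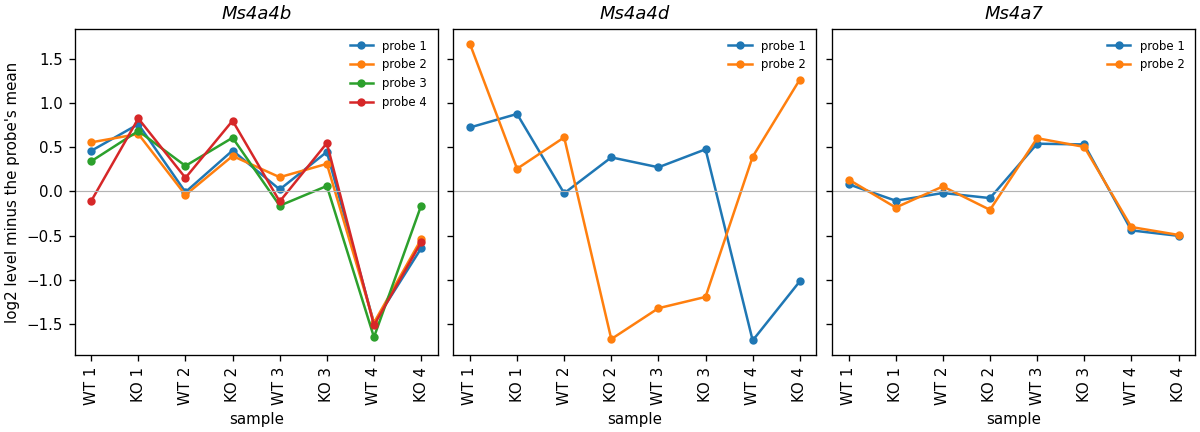
Log2 level of every probe of the 3 members with several probes, each minus the probe's own mean, over the 8 samples in same-numbered pairs. The 4 Ms4a4b probes and the 2 Ms4a7 probes follow each other, while the 2 Ms4a4d probes part, with differences of 0.36 and −0.67.

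T cell and monocyte markers are given beside the Ms4a4 genes. Of 17 T cell genes 16 were tested, 13 higher and 3 lower in KO, with a median difference of 0.53, and of 11 NK cell genes 10 were higher and 1 lower, with a median of 0.66. Summed T cell signal ranged from 10.3 to 25.6 in WT and from 12.4 to 32.6 in KO samples. The NK cell sums ranged from 7.53 to 20.4 and from 10.04 to 38.7. Monocyte genes were split, 7 higher and 4 lower of 11, with a median of 0.10 and sums of 47.1 to 147 in WT and 60.1 to 165 in KO samples. No gene of these lists passed, and the part of these cells in the Ms4a4 values was not tested. The monocyte list's mean log2 level was lowest in the samples numbered 4, at 1.15 in WT and 1.47 in KO, where Ms4a4b, Ms4a4c and Ms4a4d (by its brighter probe) were lowest too. That was not particular to monocyte genes: the macrophage list was also lowest there, at 3.14 in WT and 3.18 in KO, as were the Ms4a6 genes and Ms4a7. The T cell list was lowest in the samples numbered 3, at −1.59 and −1.41. Between same-numbered samples, the T cell and NK cell lists were higher in KO in 4 of 4 pairs, as the Ms4a4 genes were by their brightest probes. That was not particular to T and NK cell genes. The dendritic cell list was higher in KO in 4 of 4 pairs too, though barely in pair 2 (−1.499 in WT, −1.494 in KO). The monocyte list was lower in pair 2 (2.10 in WT, 2.01 in KO). With the number as a block, 8 of 16 T cell, 6 of 11 NK cell and 3 of 11 monocyte genes had an unadjusted p under 0.05, beside the 7.56% of all genes, and 0 were called. Without the block these counts were 1, 0 and 1, beside 3.35% of all genes. That T cell gene and that monocyte gene were both lower in KO, by −0.62 and −0.43. The same T cell gene was among the 8 with the block.

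**Figure D4:**
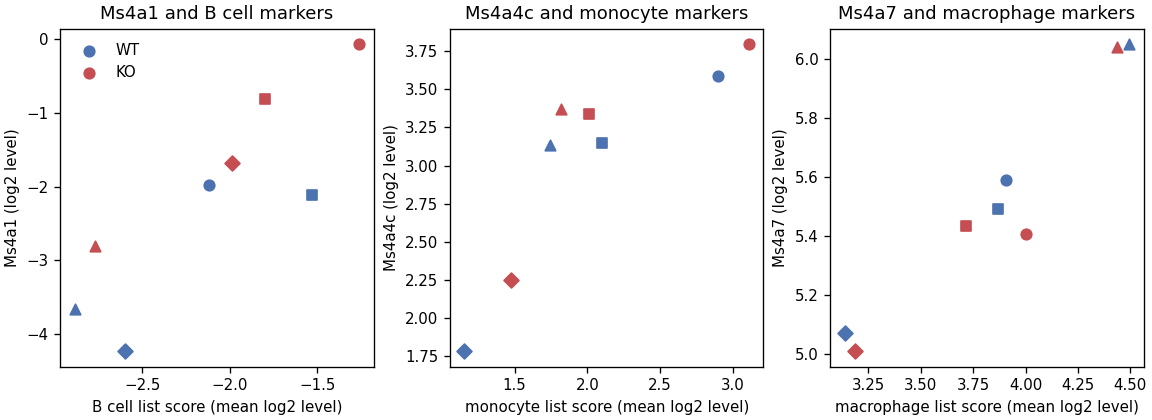
Level of Ms4a1, Ms4a4c and Ms4a7 (vertical axes, log2) against the mean log2 level of the B cell, monocyte and macrophage lists (horizontal axes) in WT (blue) and KO (red) samples, with the symbols giving the number (circle 1, square 2, triangle 3, diamond 4). In the Ms4a7 panel the samples numbered 4 are lowest and those numbered 3 highest on both axes, with numbers 1 and 2 of both genotypes between them.

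The 3 Ms4a6 genes were nearly level between the genotypes. Ms4a6b gave signals of 18027, 17269, 26278 and 10900 in the WT samples by number, and 19538, 23818, 30969 and 11638 in KO samples 1 to 4. Means were 4.63 ± 0.59 and 4.69 ± 0.58 (SD, n = 4 each), higher by 0.06 in KO, with a 95% interval of −0.84 to 0.95. Number 3 was highest and number 4 lowest in both groups.

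Ms4a6c, known from monocytes, gave signals of 16922, 14975, 24498 and 10110 in the WT samples by number, and 16040, 21866, 24864 and 10565 in KO samples 1 to 4. Its means were 4.50 ± 0.59 and 4.47 ± 0.50 (SD, n = 4 each), for a KO minus WT value of −0.03 with a 95% interval of −0.88 to 0.81. The samples ranked by number as they did for Ms4a6b.

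Ms4a6d, a macrophage member, gave signals of 22564, 20236, 32046 and 15154 in the WT samples by number, and 23367, 29597, 37485 and 14113 in KO samples 1 to 4. The means were 4.96 ± 0.51 and 4.97 ± 0.57 (SD, n = 4 each), for a KO minus WT value of 0.01 with a 95% interval of −0.83 to 0.84. The intervals of all 3 genes exclude a 2-fold change in either direction. Their same-numbered differences all lay between −0.14 and 0.10, while number 3 exceeded number 4 by more than 1 log2 unit in either genotype. Signs of differences this small turned under several settings.

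Ms4a7, the member best known from macrophages, was nearly level too. Its signals by the brighter probe were 29833, 29751, 48694 and 26507 in the WT samples by number, and 27001, 40122, 54168 and 25300 in KO samples 1 to 4. The means were 5.55 ± 0.40 and 5.47 ± 0.43 (SD, n = 4 each), for a KO minus WT value of −0.08 (standard error 0.29, limma adjusted p = 0.9998). It was lower in KO in 4 of 4 pairs, as were 9.62% of all genes, by −0.19, −0.06, −0.01 and −0.06. That count depended on the processing. KO was higher in 1 pair with normexp, with quantile normalization or in the deposited values. With each array scaled to its macrophage list, KO was higher in 2 pairs. The 95% interval, −0.75 to 0.59, excludes a 2-fold change. The difference was 0.09 without WT sample 3 and 0.08 without KO sample 4.

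Ms4a8a had its highest values in the samples numbered 3. Its signals were 770, 978, 2774 and 564 in WT samples 1 to 4. In KO samples 1 to 4 they were 1480, 2142, 2807 and 661. The means were 0.58 ± 1.00 and 0.99 ± 0.87 (SD, n = 4 each), which differed by 0.41 (standard error 0.59) and did not pass (limma adjusted p = 0.9998). KO was higher by 0.90 and 0.64 in pairs 1 and 2, lower in pair 3 (−0.14) and higher by 0.23 in pair 4. The difference was therefore 0.77 on slide 1 and 0.04 on slide 2, each from 2 samples a group. Without WT sample 4 it was 0.05 and without WT sample 3 it was 0.85.

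The sample number, not the genotype, carried most of the variation of most members. There are more numbers than genotypes, so the number's share tends to be the larger one even without any effect. The number held 99.5% of the sum of squares of Ms4a6b and of Ms4a6d, 98.9% of Ms4a6c, 98.0% of Ms4a7, 94.6% of Ms4a4c, 94.0% of Ms4a4d, 88.4% of Ms4a8a and 84.3% of Ms4a4b, against a median of 66.3% over all genes. Such shares were not particular to the family. The number's median share was 95.8% in the macrophage list, 90.7% in the monocyte list and 99.3% in the tumour epithelial list. It was lowest in the T cell list, at 62.5%, and the endothelial list, at 61.5%. Genotype held 0.01% for Ms4a6d, 13.6% for Ms4a4b and 40.8% for Ms4a1, with a median of 4.94% over all genes. Ms4a1, at 53.0% for the number, was the member least tied to it. Spread over the 8 arrays also set members apart: the SD was 0.39 for Ms4a7, smaller than that of most genes, and 1.39 for Ms4a1, which exceeded 90.7% of all genes.

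**Figure D5:**
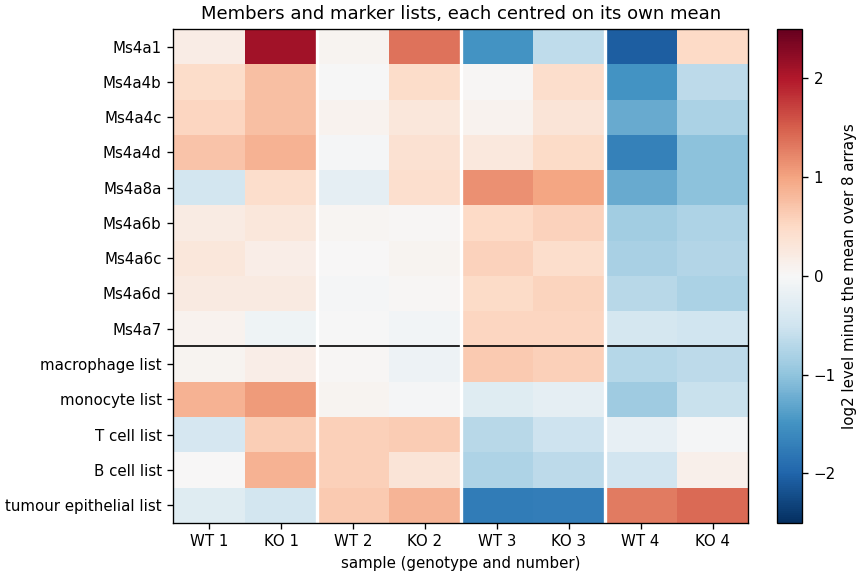
Log2 level of each member (upper rows) and mean log2 level of 5 marker lists (lower rows), each minus its mean over the 8 arrays, with same-numbered samples side by side. Number 4 is low for the members other than Ms4a1 in KO, number 3 is high for Ms4a8a, the Ms4a6 genes and Ms4a7, and the tumour epithelial list runs the other way.

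Macrophage and tumour epithelial markers differed by number in the same samples. The macrophage list averaged 4.50 and 4.44 in WT and KO samples numbered 3 and 3.14 and 3.18 in those numbered 4. For the tumour epithelial list the same samples gave 0.11 and 0.12 against 3.15 and 3.27. Between genotypes, 3 of 14 macrophage genes were higher and 11 lower in KO (median −0.04), with summed signals of 381 to 673 in WT and 368 to 680 in KO. Of the 8 epithelial genes 4 were higher and 4 lower (median 0.02), with sums of 12.98 to 118 in WT and 13.6 to 118 in KO. When each array was instead scaled to its macrophage list, the SD in WT samples went from 0.59 to 0.15 for Ms4a6b and from 0.40 to 0.16 for Ms4a7. For Ms4a1 it went from 1.12 to 1.11 in WT and from 1.18 to 1.42 in KO samples. The genotype differences then were 1.67 for Ms4a1, 0.53 for Ms4a4b, 0.29 for Ms4a4c, 0.38 for Ms4a4d, 0.43 for Ms4a8a and between −0.06 and 0.07 for the other members. None passed (limma adjusted p = 0.99999 for each), and 0 genes were called on that scale (0% of genes). Again 7 of 9 members had the higher mean in KO (51.6% of genes), 0 had an unadjusted p under 0.05 (1.24% of genes) and 0 had groups that did not overlap (0.694% of genes).

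Genes most like each member were found by the smallest root mean square difference between levels centred on their own means, over the 8 arrays. For Ms4a7 these were Heatr5a, the complement gene C1qa and Plekha2, at 0.050, 0.056 and 0.056 log2 units, while the median over all genes was 0.52. Ms4a6c lay nearest to the myeloid lectin gene Clec4a2 (0.053), the transcription factor gene Mef2c (0.064) and Ms4a6d (0.077). Nearest to Ms4a6d were Clec4a2 (0.042), Casp8 (0.049), the gene of an apoptosis caspase, and Mef2c (0.067), and nearest to Ms4a6b were Mef2c (0.065), Tm6sf1 (0.066) and Ms4a6d (0.070). For Ms4a4b they were the ribonuclease gene Rnase6 (0.089), Ms4a4c (0.13) and Ly6a (0.15), which encodes the surface protein Sca-1. Pilrb1, an activating immune receptor gene (0.086), Rnase6 (0.094) and Samsn1 (0.12) came closest to Ms4a4c.

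The remaining members had looser neighbours. Ms4a4d, by its brighter probe, had Treml4 (0.17), the cytokine receptor gene Il21r (0.17) and the Toll-like receptor gene Tlr6 (0.18). Ms4a8a had Tifab (0.20), the C5a receptor gene C5ar1 (0.23) and the growth factor gene Hgf (0.23). Closest to Ms4a1 were Efnb3 (0.40), the lymphocyte receptor gene Cd96 (0.51) and the NK receptor gene Klra6 (0.54). Among the 36 pairs of members the nearest were Ms4a6b with Ms4a6d (0.070), Ms4a6c with Ms4a6d (0.077) and Ms4a6b with Ms4a6c (0.082). Ms4a1 with Ms4a8a was the farthest (1.44). These distances share the arrays and the sample numbers, and they describe the 8 arrays.

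Among other genes of the superfamily, 2 were bright and 6 dim. Of 15 listed, 8 were on the array under these names and 7 were not measured. The 2 tested are relatives outside the chromosome 19 stretch: Tmem176a measured 4.89 ± 0.23 in WT and 5.06 ± 0.25 in KO, and Tmem176b 4.04 ± 0.24 and 4.18 ± 0.29 (SD, n = 4 each). Neither passed (limma adjusted p = 0.9998 for each). The other 6 did not reach the filter on dim probes. Among them Ms4a2, the beta chain of the high-affinity IgE receptor of mast cells, and Ms4a5, Ms4a10, Ms4a13 and Ms4a19 were not well above background on any array.

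Proteins known to work with MS4A family members did not pass either. Of 12 genes listed 10 were tested, 4 higher and 6 lower in KO, with a median difference of −0.02 and 0 called. Tnfrsf18, which encodes GITR, differed by 0.70, from 0.82 ± 0.49 in WT to 1.52 ± 0.67 in KO (SD, n = 4 each). Trem2, a lipid receptor of macrophages whose shed form in humans is tied to the MS4A locus, measured 4.04 ± 0.61 and 3.79 ± 0.56, a difference of −0.24. Fcer1g, the signalling chain of Fc receptors, differed by −0.02, its relative Tyrobp by −0.10, the kinase gene Syk by −0.16 and the tetraspanin gene Cd81 by 0.02. For each of these the limma adjusted p was 0.9998.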

How the data were processed

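Gene expression was measured on 8 arrays, 1 per sample, and titles gave genotype and number. Cy3 label was made from 250 ng of RNA, per the labels' protocols. Per the file headers, 1-colour Agilent mouse arrays were read with Feature Extraction 10.7.1.1, where the submitters' processing notes name 10.5. The deposited scanner files hold each spot's processed signal, an intensity with background already taken off per the file headers, and flag bright, saturated (0 spots) and outlier spots. The authors also deposited a table of intensity values, made by steps that no source used here gives. Its column medians were 92 to 94. Set against quantile-normalized median signals, differences between its arrays gave r = 0.9994 over 22256 probes, and it served as an alternative.

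Controls and outlier spots (0 on member probes) were dropped. Spots were averaged per probe as log2, each array's 75th percentile was subtracted, and probes well above background on at least 4 arrays were kept (27174 of 41174). A gene was read by its brightest kept probe. Accessions named 25097 probes through a RefSeq table of GRCm38.p6, and 16077 kept their accession. The KO against WT test, two-sided, was limma 3.58.1 (lmFit, then eBayes) under R 4.3.3, and Benjamini-Hochberg adjusted p-values were read at 0.05. On data simulated for KO against WT over 20886 genes, recovery was 14% at 2-fold, 60% at 4-fold, 68% at 8-fold, and 92% at 16-fold, and 4 calls were false. The simulated noise was independent between genes and between arrays. The real samples share deviations, so these rates may not carry over to them. Promoter windows were aligned with Biopython 1.88.

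Deviations from group means correlated at 0.30, 0.14, 0.70 and 0.51 for the samples numbered 1 to 4. Some differently numbered samples reached similar values to number 2: WT 2 with KO 4 gave 0.15 and WT 4 with KO 2 gave 0.14. The numbers were read as pairs, which these values bear out for numbers 1, 3 and 4 but not clearly for number 2. This comes from the data, and the labels do not say what a number shares. Correlations of members with marker lists across samples were therefore not reported, since fewer than 6 samples are independent. The members and lists were chosen with earlier results of these data known. All 9 members are named, then the 3 genes most like each, Atf3, and genes of the fixed lists; of the marker lists, Bank1, Pax5, Pou2af1 and Cd79a were picked after their values were seen, and other allowed marker genes are not reported here. The alternatives were another background correction, scaling, dim-probe filter, block, weighting or probe choice, the deposited table, each slide alone, each sample left out and, added after the data were seen, the macrophage list as scale.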

Additional observations from a re-analysis of the deposited data

Results flagged for a closer look

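The signal of 1 Ms4a4b probe in 1 sample lay far from its group. By the fourth and dimmest Ms4a4b probe, WT sample 4 measured −2.09 on the log2 scale, while the other WT samples lay between −0.69 and −0.42, a gap of 0.84 of the group's range, above Dixon's 95% critical value for 4 samples. The other Ms4a4b probes also had their lowest WT value in that sample. Of 28 groups of 4 arrays examined over the 14 member probes this was the 1 that stood out, and chance marks about 1 in 20.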

How the results depend on the processing

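No member was called in any of the 22 alternatives, and 0 genes were called in all but 1, with 0 to 1 over the left-out samples (1 without KO sample 1). The number of members higher in KO ranged from 3, without WT sample 4, to 9 over the left-out samples, and was 9 with normexp, 5 with array weights, 6 on slide 2 alone and 7 in every other alternative that kept all samples or slide 1. Differences kept their sign in every alternative for Ms4a1, Ms4a4b and Ms4a8a by their brightest probes. Left-out samples gave −0.10 to 0.59 for Ms4a4c, −0.14 to 0.76 for Ms4a4d, −0.22 to 0.32 for Ms4a6b, −0.31 to 0.21 for Ms4a6c, −0.22 to 0.28 for Ms4a6d and −0.27 to 0.088 for Ms4a7. Signs also turned with normexp for Ms4a6c (0.20) and Ms4a7 (0.037), in the deposited table for Ms4a6c (0.033) and Ms4a6d (−0.056), on slide 2 alone for Ms4a6d (−0.016), and with array weights for Ms4a6b (−0.12) and Ms4a6d (−0.13); the cause was not tested. Normexp moved the median of all genes to −0.14. With the replicate block no member was called (smallest limma adjusted p = 0.636, for Ms4a1 and Ms4a4b) and 0 genes were; 2 members, Ms4a1 and Ms4a4b, had an unadjusted p under 0.05, as did 7.56% of genes. The number of arrays and, for Ms4a1 and the second Ms4a4d probe, low signal over background limit precision.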

Other observations

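Ms4a3, a gene of early granulocyte and monocyte precursors, was outside the test because its probe was well above background on 2 arrays only, both of KO samples, and on 0 of the 4 WT arrays. Its highest signal was 92.7 intensity units. Neutrophil genes, 8 of them tested, were not called, with 3 higher and 5 lower in KO (median log2 difference −0.21). Genes of mast cells, basophils and eosinophils had 4 higher and 3 lower of 7 tested (median 0.26), and dendritic cell genes had 6 higher and 2 lower of 8 (median 0.62), with 0 called in each. Endothelial genes were lower in KO in 8 of 8 (median −0.98), beside 10702 lower of all 20886 genes. Fibroblast genes were higher in 6 of 8 (median 0.06), again with 0 called by limma. At an unadjusted p under 0.05, where 3.35% of all genes lay, there was 1 endothelial gene of 8 and 0 in the other 4 lists of this paragraph. With the number as a block these were 4 of 8 endothelial and 2 of 8 dendritic cell genes, beside 7.56% of all genes. In that fit the neutrophil, fibroblast and mast cell, basophil and eosinophil lists had 0, and 0 genes were called.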
